A study of Mus musculus with 27 samples.

Results

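NRF2 (gene Nfe2l2), its inhibitor KEAP1 and 8 genes that NRF2 is known to switch on were followed in the livers of 27 aged mice kept on 4 diets. The 10 genes, Nfe2l2, Keap1, Nqo1, Gclc, Gclm, Gsr, Txnrd1, Srxn1, Hmox1 and Slc7a11, were chosen by name from the 18820 genes that the array names. Each was read by 1 transcript cluster, and 9 of the 10 passed the filter on low and flat signals. Slc7a11 did not pass.

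NRF2 is a transcription factor that is kept low by KEAP1, an adaptor that hands it to a ubiquitin ligase. When electrophiles or oxidants modify KEAP1, NRF2 escapes, enters the nucleus and pairs with a small MAF protein on antioxidant response elements (ARE) in DNA. In liver its targets make and recycle glutathione, recycle thioredoxin and peroxiredoxins, break down haem, and reduce or conjugate foreign compounds. NRF2 is controlled mostly as a protein, which arrays do not measure, so the values here are those of RNA only.

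The mice were males of the inbred strain C57BL/6J, all 28 months old at death. The control diet AIN-93W (C, n = 8) and 30% calorie restriction (CR, n = 5) were kept up until death. So was an ad libitum medium-fat diet with 25% of energy as fat (MF, n = 7), while a last group was moved from CR to ad libitum MF feeding at 24 months, 4 months before death (CR-MF, n = 7). Every mouse was fasted and given a gavage of the solvent carboxymethyl cellulose before death. The CR diet was given as a daily portion and the other diets ad libitum. The timing of the last feeding before the fast and the CR diet can therefore not be told apart. Whole liver was used, and in such bulk tissue fewer cells of a type and less RNA per cell cannot be told apart.

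Each mouse was measured on 1 array, and the values are log2 intensities, so a difference of 1 is a factor of 2. Array medians lay between 5.38 and 5.48. The tissue label held: in each mouse the mean level of the 6 hepatocyte markers tested lay between 12.65 and 13.09. Across all 13993 genes, the root mean square deviation of an array from its group mean ranged from 0.20 to 0.39, and the MF mouse C4_11 and the CR-MF mouse BC4_11 had the highest values. The CR-MF mouse BC4_15 came next at 0.34, and B4_5 had the highest value in CR at 0.29. Both mice recur below. The codes in the array names put every CR-MF liver in well row H and no other liver there, so this row and the CR-MF diet cannot be told apart (the reading of the codes as plates and wells is inferred). All 8 C livers were in row F and all 7 MF livers in row G, so row and diet cannot be told apart by a direct comparison of MF with C either. The 5 CR livers were split, 3 in row F and 2 in row G. A fit of C, CR and MF with the row as a block, and fits of CR with C within row F and of MF with CR within row G, all added after the data were seen, rest on these 5 livers.

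Promoter sequence was looked at because several of the targets varied together between mice, as described further on. RefSeq windows of GRCm38.p6, from 250 bases before a gene's start to 50 after it, held 7 of the 10 genes (9 windows), while Gclc, Gsr and Hmox1 had no entry. On either strand, the ARE core TGACNNNGC was found in the windows of 4 of these 7 genes, namely Nfe2l2, Gclm, Txnrd1 and Srxn1, against 14.0% of all 27025 genes with a window. The shorter AP-1-like motif TGANTCA, whose letters overlap those of the core where TGAC is followed by TCAGC, was found in 1 of the 7, Srxn1, against 8.97% of all genes. Stretches of 4 genes from before the start are shown on the strand of the gene, with the motif in capitals: the AP-1-like pair of Srxn1 at chr2:152105407-152105500 on the plus strand (the nearer one 45 bases before the start), and the ARE cores of Txnrd1 at chr10:82859089-82859147 on the plus strand (92 bases before a later start, 25255 bases into the gene), Gclm at chr3:122245398-122245456 on the plus strand (134 bases before a start 70 bases into the gene) and Nfe2l2 itself at chr2:75704870-75704913 on the minus strand (240 bases before).
Srxn1: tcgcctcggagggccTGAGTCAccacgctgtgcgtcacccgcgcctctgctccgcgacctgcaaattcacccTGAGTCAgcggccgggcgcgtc
Txnrd1: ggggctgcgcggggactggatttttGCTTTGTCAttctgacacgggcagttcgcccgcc
Gclm: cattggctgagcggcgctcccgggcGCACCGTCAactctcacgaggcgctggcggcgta
Nfe2l2: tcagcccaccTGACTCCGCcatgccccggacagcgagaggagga
Of the 3 windows of Txnrd1, that of the first start held no core. In Txnrd1 and Gclm the core reads on the opposite strand, and the core of Srxn1 lies after its start and is not shown. The targets that varied together were Nqo1, Gclc, Gsr, Txnrd1 and Srxn1. Of these, Gclc and Gsr had no window and that of Nqo1 held no core, while Gclm and Nfe2l2 are outside this set. A match describes letters only and says nothing of binding in these livers, and its part in varying together was not tested.

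None of the 9 tested genes differed between any pair of diets at an adjusted p of 0.05 (limma, Benjamini-Hochberg over 13993 genes). Across all genes the share called was 1.57% for CR minus C, 0.300% for CR-MF minus C, 0% for MF minus C, 5.42% for MF minus CR, 0.600% for CR-MF minus CR and 1.44% for CR-MF minus MF. The test over all 4 groups at once called 3.62% of genes and none of the 9. At an unadjusted p of 0.05, Nfe2l2 and Gsr passed for CR-MF minus C (11.4% of all genes did), Keap1 for MF minus C (3.97%), Gsr for MF minus CR (23.7%), and Nfe2l2, Keap1 and Gsr for CR-MF minus MF (14.8%). Over the 4 groups, Nfe2l2 and Gsr passed at that level, as did 20.8% of all genes. The intensity-based moderated statistic named in the study's methods also called none of the 9 in any comparison, and neither did the fit with the row as a block or those within a row. In the row fit, Gclm in MF minus C was 0.54 (unadjusted p = 0.0107, limma adjusted p = 0.505) where the difference of means was 0.14.

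**Figure D1:**
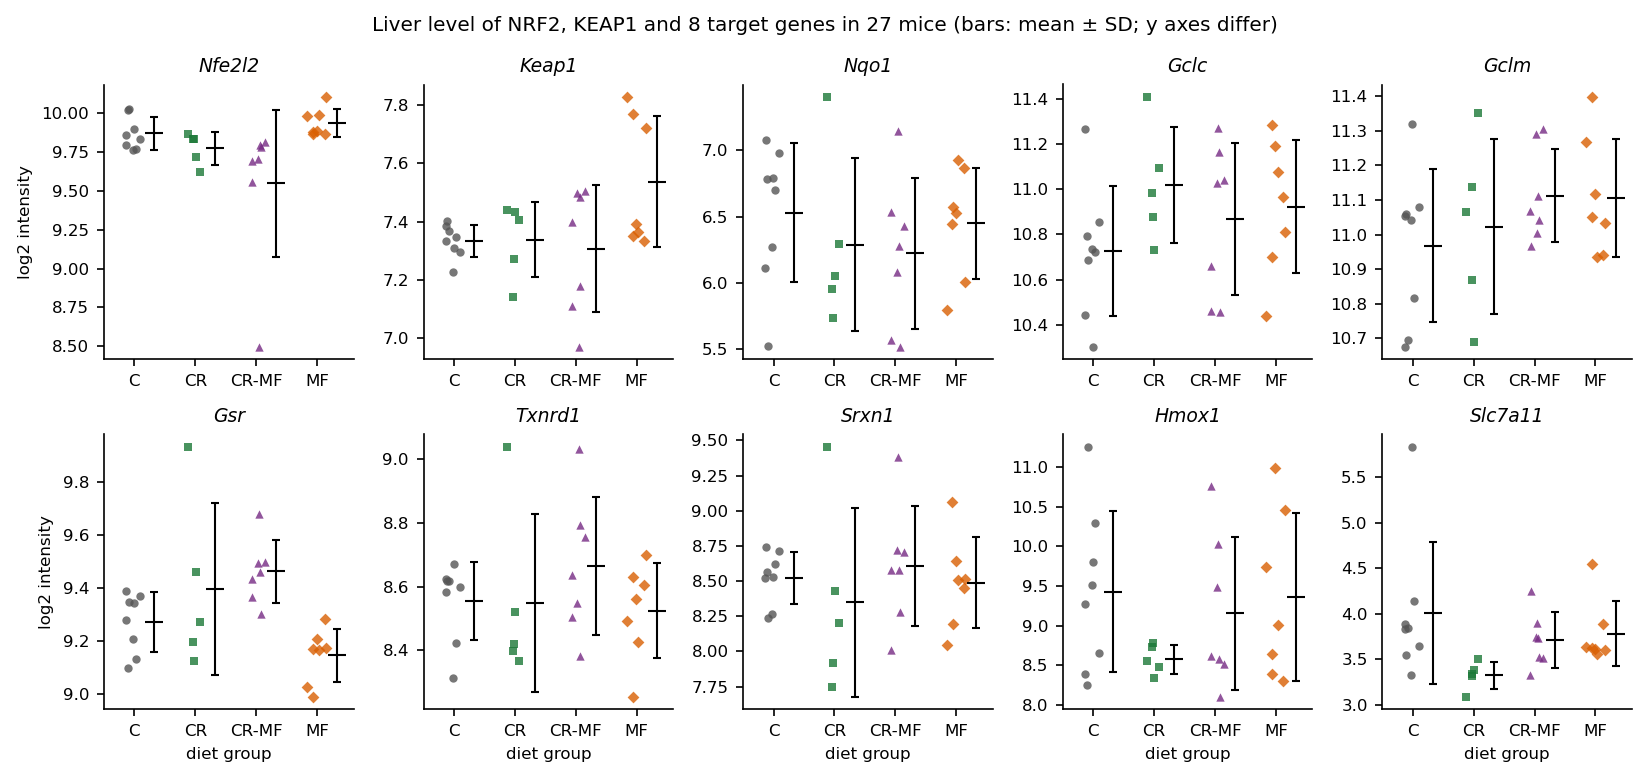
Level (log2 intensity, y axis, a separate scale for each gene) of the 10 genes in each of the 27 livers, by diet group on the x axis; points are mice and bars give the mean ± SD. Of the 9 tested genes, all groups overlap except those of Nfe2l2 and Gsr between CR-MF and MF (0.650% of all genes do not overlap there). Slc7a11, near the floor, is shown but not compared. For Nfe2l2, 1 CR-MF mouse lies far below all others, and Hmox1 spans 8.34 to 8.78 in CR against 8.25 to 11.26 in C.

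Among the regulators, Nfe2l2 ranged in C from 9.76 to 10.03 (median 9.85) and in MF from 9.86 to 10.10 (median 9.89). The 5 CR mice read 9.62, 9.72, 9.83, 9.83 and 9.87. In CR-MF the values ran from 8.50 to 9.81 with a median of 9.71. All 7 CR-MF livers lay below all 7 MF livers, which 0.650% of all genes did in either direction, and the lowest value belonged to a single mouse, BC4_15, with the other 6 CR-MF mice between 9.56 and 9.81. CR-MF averaged 9.55 ± 0.47 (SD, n = 7), MF 9.94 ± 0.09 (n = 7), C 9.87 ± 0.10 (n = 8) and CR 9.77 ± 0.10 (n = 5). CR-MF minus MF was -0.39 (SE 0.13, limma adjusted p = 0.132), and without BC4_15 it was -0.22 (adjusted p = 0.0583).

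For Keap1, C spanned 7.23 to 7.40 (median 7.34) and CR-MF 6.97 to 7.50 (median 7.40). The CR mice read 7.14, 7.27, 7.40, 7.44 and 7.44. In MF the range was 7.33 to 7.83 with a median of 7.39. The MF mice were split: C4_1, C4_7 and C4_9 read 7.72 to 7.83, above every mouse of the other diets, while the other 4 MF mice read 7.33 to 7.39. The MF mean of 7.54 ± 0.22 (n = 7) stood beside 7.31 ± 0.22 in CR-MF (n = 7), 7.33 ± 0.06 in C (n = 8) and 7.34 ± 0.13 in CR (n = 5). MF minus C was 0.20 (SE 0.09, limma adjusted p = 1.00) and CR-MF minus MF was -0.23 (SE 0.09, limma adjusted p = 0.224).

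Gsr encodes glutathione reductase, which returns oxidised glutathione to its reduced form at the cost of NADPH, and it came nearest to a call. Its levels were 9.30 to 9.68 in CR-MF (median 9.46), 8.99 to 9.28 in MF (median 9.17) and 9.10 to 9.39 in C (median 9.31). The CR mice read 9.13, 9.20, 9.27, 9.46 and 9.93. Every CR-MF liver was above every MF liver, a separation that 0.650% of all genes showed in either direction. C and 4 of the 5 CR mice overlapped both, while the CR mouse B4_5 exceeded all others. The means were 9.46 ± 0.12 in CR-MF, 9.15 ± 0.10 in MF (n = 7 each), 9.27 ± 0.11 in C (n = 8) and 9.40 ± 0.32 in CR (n = 5). CR-MF minus MF was 0.32 (SE 0.09, 95% interval 0.13 to 0.50, limma adjusted p = 0.0670).

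Whether this difference of Gsr passed the threshold depended on which mice and weights entered. It passed without the CR mouse B4_5 (0.32, limma adjusted p = 0.0133), which is in neither group, and without the MF mouse C4_13 (0.34, adjusted p = 0.0464). It also passed with array weights (0.29, adjusted p = 0.0363) and in a fit of the CR-MF and MF arrays alone (adjusted p = 0.0362). MF minus CR was -0.25 (SE 0.10, limma adjusted p = 0.120) and fell to -0.12 without B4_5. Groups that do not overlap made up 2.02% of all genes for CR and C, 0.286% for CR-MF and C, 0.0286% for MF and C, 3.79% for MF and CR and 1.20% for CR-MF and CR, and in none of these comparisons was one of the 9 genes among them.

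**Figure D2:**
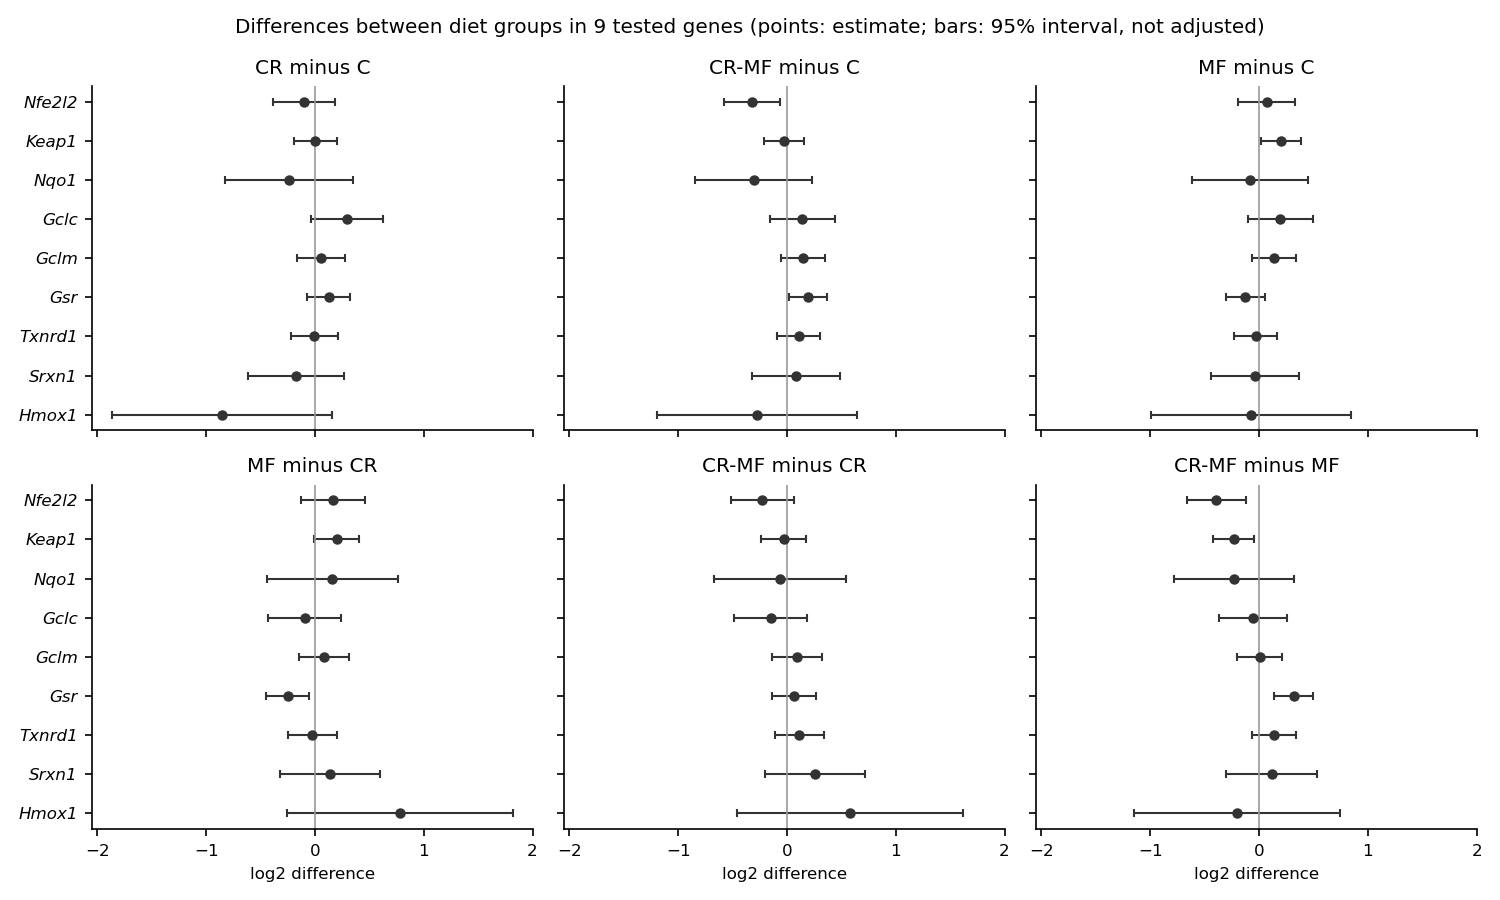
Log2 differences between diet groups (x axis) of the 9 tested genes (y axis) in the 6 comparisons; points are limma estimates and bars their 95% intervals, not adjusted for the number of genes. The interval of Gsr in CR-MF minus MF runs from 0.13 to 0.50, and the intervals of Hmox1 are wide, from -1.86 to 0.16 in CR minus C.

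The glutathione synthesis genes gave small differences in the main fit, with intervals that span 0. Gclc, the catalytic subunit of glutamate-cysteine ligase, averaged 11.02 ± 0.26 in CR (n = 5), 10.73 ± 0.29 in C (n = 8), 10.92 ± 0.30 in MF and 10.87 ± 0.34 in CR-MF (n = 7 each). Its largest difference, CR minus C, was 0.29 (95% interval -0.04 to 0.62, limma adjusted p = 0.314). Gclm, the modifier subunit of the same enzyme, averaged 10.97 ± 0.22 in C, 11.02 ± 0.25 in CR, 11.11 ± 0.13 in CR-MF and 11.11 ± 0.17 in MF. For Gclm the largest difference, CR-MF minus C, was 0.14 (95% interval -0.06 to 0.35, limma adjusted p = 0.606). The Gclm interval of CR-MF minus MF ran from -0.20 to 0.22. With the row as a block the differences were larger but not called. Gclc in CR minus C was then 0.44 (limma adjusted p = 0.217). Gclm in MF minus CR was 0.33 (limma adjusted p = 0.243), and its MF minus C is given above.

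Slc7a11, which imports the cystine from which glutathione is made, was above the filter's intensity of 20 (log2 4.32) on 2 of the 27 arrays. These were the C mouse A4_9 at 5.83 and the MF mouse C4_11 at 4.55, and the other 25 values lay between 3.09 and 4.25. No comparison is drawn from values this low.

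The thioredoxin and quinone genes gave no call either. Nqo1, a quinone reductase and a standard readout of NRF2, averaged 6.53 ± 0.52 in C, 6.29 ± 0.65 in CR, 6.22 ± 0.57 in CR-MF and 6.45 ± 0.42 in MF. The CR mice of Nqo1 read 5.74, 5.96, 6.05, 6.29 and 7.40, the last being B4_5 again. Txnrd1, the cytosolic thioredoxin reductase, averaged 8.56 ± 0.12 in C, 8.55 ± 0.28 in CR, 8.66 ± 0.22 in CR-MF and 8.52 ± 0.15 in MF. Srxn1, sulfiredoxin, which repairs over-oxidised peroxiredoxins, averaged 8.52 ± 0.19 in C, 8.35 ± 0.67 in CR, 8.61 ± 0.43 in CR-MF and 8.49 ± 0.32 in MF. Every interval of these 3 genes between diets spanned 0, and the smallest unadjusted p was 0.172, for Txnrd1 in CR-MF minus MF (difference 0.14).

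Between mice of the same diet, by contrast, 5 of the targets moved together. After the group means were subtracted, 10 of the 36 pairs among the 9 genes were correlated at an adjusted p of 0.05 over 27 mice (100000 permutations within diets, 2-sided, Benjamini-Hochberg over the 36 pairs), all of them positively, and 6 pairs were by Spearman's rho. Of the 10, 9 were pairs among Nqo1, Gclc, Gsr, Txnrd1 and Srxn1. This set of 5 was picked after its values were seen. Its 10 pairs had r between 0.43 and 0.81, and only Gclc with Gsr was not called. No share of called pairs was worked out for genes drawn at random from the array. Whether moving together sets these 5 targets apart from other genes was therefore not tested.

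The tightest pair was Gsr with Txnrd1 (r = 0.81, rho = 0.67, adjusted permutation p = 0.000900 for r and 0.00468 for rho). Next came Gsr with Srxn1 (r = 0.80, rho = 0.60, adjusted permutation p = 0.00180 and 0.0175), Txnrd1 with Srxn1 (r = 0.79, rho = 0.64, adjusted permutation p = 0.00180 and 0.0126) and Nqo1 with Srxn1 (r = 0.76, rho = 0.66, adjusted permutation p = 0.000900 and 0.00468). Gclm stood apart, with r between -0.07 and 0.23 against the 5. Hmox1 stood apart as well, with r from -0.36 to 0.08 against them. Nfe2l2 RNA had r from -0.42 to -0.24 with the 5, none of them called, and these signs rested on few mice. Without BC4_15 and BC4_13, the mice farthest from its median, r was -0.10 with Nqo1, 0.01 with Gclc, 0.10 with Gsr, 0.47 with Txnrd1 and 0.04 with Srxn1.

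**Figure D3:**
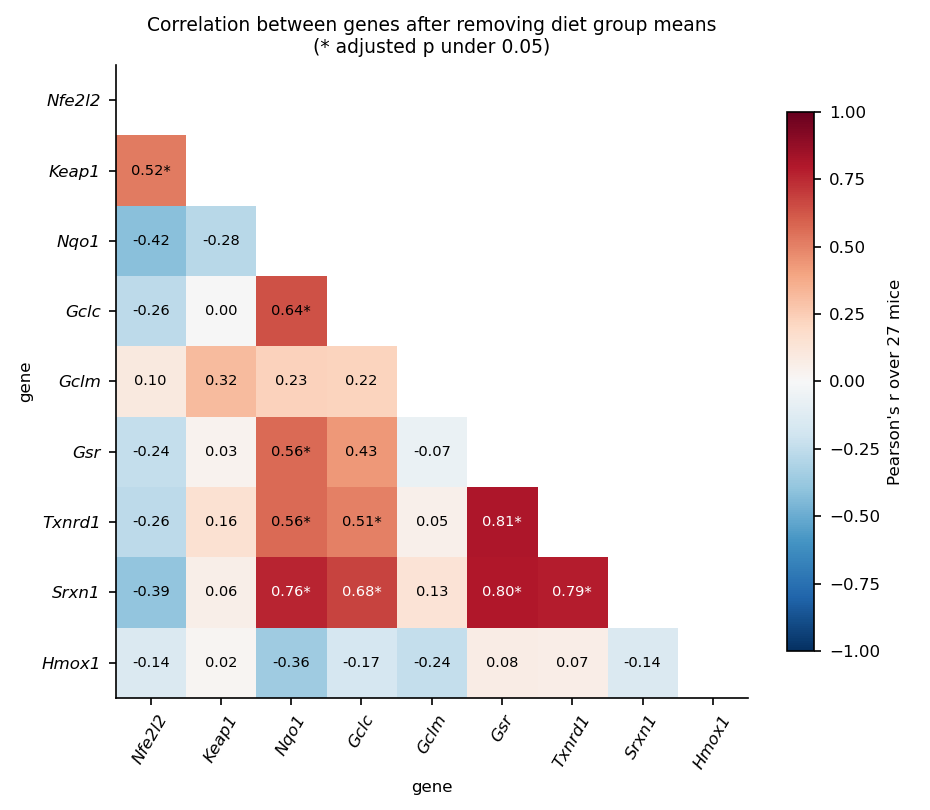
Pearson's r between each pair of the 9 tested genes (both axes) over 27 livers after subtraction of diet group means; colour and printed value give r, and asterisks mark adjusted permutation p under 0.05. The block of positive values joins Nqo1, Gclc, Gsr, Txnrd1 and Srxn1 (r from 0.43 to 0.81), while the rows of Gclm and Hmox1 hold no asterisk.

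A pair of mice carried much of this. B4_5 (CR) held the highest level of all 27 mice for Nqo1 (7.40), Gclc (11.41), Gsr (9.93), Txnrd1 (9.04) and Srxn1 (9.45), with Nfe2l2 at 9.87 and Keap1 at 7.44. BC4_15 (CR-MF) came second for Nqo1 (7.15), Gsr (9.68), Txnrd1 (9.03) and Srxn1 (9.38), and had the lowest Nfe2l2 (8.50) and the lowest Keap1 (6.97) of all mice. So the same targets were high in 1 mouse with an ordinary Nfe2l2 level and in 1 with a low one. Without both mice the r values of the 10 pairs fell to between 0.20 and 0.61 and 3 pairs were still called, Nqo1 with Srxn1 (r = 0.58), Gclc with Srxn1 (r = 0.61) and Gsr with Txnrd1 (r = 0.58).

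Within the 19 mice of plate G150, which include both, r lay between 0.51 and 0.89. The number of called pairs fell from 10 to 6 without any 1 of the mice C4_13, BC4_9, BC4_3 or BC4_11, to 6 within plate G150 and to 3 when the 2 mice farthest from the median of the first gene of each pair were left out. The tenth pair, Nfe2l2 with Keap1 (r = 0.52, rho = 0.42, adjusted permutation p = 0.0399 and 0.0875), had r = 0.20 without BC4_15 and BC4_13.

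Each of the 9 genes was also set against 130 other genes from lists of NRF2 partners and targets, redox and haem genes, Atf4 and its targets, and cell type markers. Of these 1170 pairs, 42 were called (3.59%, the same permutation test, adjusted over all 1170). No share of partners was worked out over all genes of the array. Whether the listed partners of a member stand out from other genes was therefore not tested. Of the 42, 16 were called within plate G150, 28 without B4_5 and BC4_15, and 25 without the 2 mice farthest from the median of the member. Nqo1 had 11 partners, all positive, of which 10 were among the 24 other NRF2 targets tested. Within plate G150 2 of the 11 were called (r from 0.54 to 0.76), without B4_5 and BC4_15 8 were, and without the 2 farthest mice 7 were. The partners were led by Ugdh, which makes the sugar donor for glucuronidation (r = 0.79, rho = 0.77, adjusted permutation p = 0.00213), and by the glutathione transferase Gstm4 (r = 0.74, rho = 0.70, adjusted permutation p = 0.00585). The eleventh was Prdx3, the mitochondrial peroxiredoxin (r = 0.74, rho = 0.69, adjusted permutation p = 0.00585). These 3 pairs kept r of at least 0.57 without B4_5 and BC4_15 and within plate G150, and they were called whichever 1 mouse was left out.

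Srxn1 followed Ugdh most closely (r = 0.83, rho = 0.74, adjusted permutation p = 0.00130, r = 0.73 without B4_5 and BC4_15). Gclc followed Ephx1, the microsomal epoxide hydrolase (r = 0.73, rho = 0.76, adjusted permutation p = 0.00390, r = 0.71 without them). The 4 pairs of Gsr and the 2 of Txnrd1 lost their call without B4_5 and BC4_15. Gclm ran against Txnip, the inhibitor of thioredoxin (r = -0.76, rho = -0.78, adjusted permutation p = 0.00270), with r = -0.77 without those mice and -0.76 within plate G150. Nfe2l2 had no partner among the 130 genes, and Keap1 had 1, Cyp2a5 (r = -0.69, rho = -0.64, adjusted permutation p = 0.0187, r = -0.52 without the 2 mice farthest from the Keap1 median).

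Hmox1, haem oxygenase 1, which opens the haem ring and frees iron, behaved unlike the other targets. In C it ranged from 8.25 to 11.26 (median 9.39), in CR-MF from 8.11 to 10.77 (median 8.61) and in MF from 8.30 to 10.99 (median 9.01). The 5 CR mice read 8.34, 8.47, 8.56, 8.73 and 8.78. CR livers were thus all in the lower part of the range that the other diets spanned. CR averaged 8.58 ± 0.18 (n = 5), C 9.43 ± 1.02 (n = 8), MF 9.36 ± 1.06 and CR-MF 9.16 ± 0.97 (n = 7 each). CR minus C was -0.85 (SE 0.49, 95% interval -1.86 to 0.16, limma adjusted p = 0.340).

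The spread itself was compared in a fit on absolute deviations from the group means, added after the data were seen. Hmox1 deviated by 0.73 less in CR than in the mean of the other 3 groups (limma adjusted p = 0.321), and Gsr and Srxn1 by 0.18 and 0.30 more (limma adjusted p = 0.0843 and 0.286). These 3 passed at an unadjusted p of 0.05, as did 12.2% of all genes, and after adjustment 0.364% of all genes passed and none of the 9. Without B4_5 the values for Gsr and Srxn1 were 0.03 and 0.05, and that for Hmox1 was -0.68.

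The level of Hmox1 followed that of macrophage genes. Of its 14 partners among the 130 genes, all positive, 7 were among the 9 markers of Kupffer cells, the resident macrophages of the liver, and 3 among the 6 markers of recruited macrophages. What share of all genes would be partners of Hmox1 was not worked out. Adgre1, which encodes the macrophage surface protein F4/80, led the Kupffer markers (r = 0.94, rho = 0.93, adjusted permutation p = 0.00130), followed by Cd68 (r = 0.92), Vsig4 (r = 0.89), Clec4f (r = 0.87), Csf1r and Timd4 (r = 0.85 each) and Cd5l (r = 0.75). The exceptions were Marco (r = 0.27) and Cd163 (r = -0.13). The recruited macrophage markers called were Trem2 (r = 0.92, rho = 0.88), Lyz2 (r = 0.77) and Ccr2 (r = 0.71). Those not called were Itgax (r = 0.50), Cd9 (r = 0.17) and Gpnmb (r = 0.05).

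Spic, a transcription factor of macrophages that recycle haem iron, gave r = 0.94 (rho = 0.92, adjusted permutation p = 0.00130). The remaining 3 partners were the endothelial genes Cdh5 (r = 0.85) and Pecam1 (r = 0.73), and Slc3a2 (r = 0.68), the heavy chain that pairs with SLC7A11. The other endothelial markers tested were not called, with Lyve1 at r = 0.52, Kdr at 0.01, Stab2 at -0.02 and Clec4g at -0.12. None of the 24 other NRF2 targets was a partner, and their median r with Hmox1 was -0.15. All 14 pairs held without B4_5 and BC4_15, 13 without the 2 mice farthest from the Hmox1 median, and 10 within plate G150. Among all 13993 genes Spic and Clec4n were the most alike to Hmox1 over the 27 mice without centring (r = 0.94 each).

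**Figure D4:**
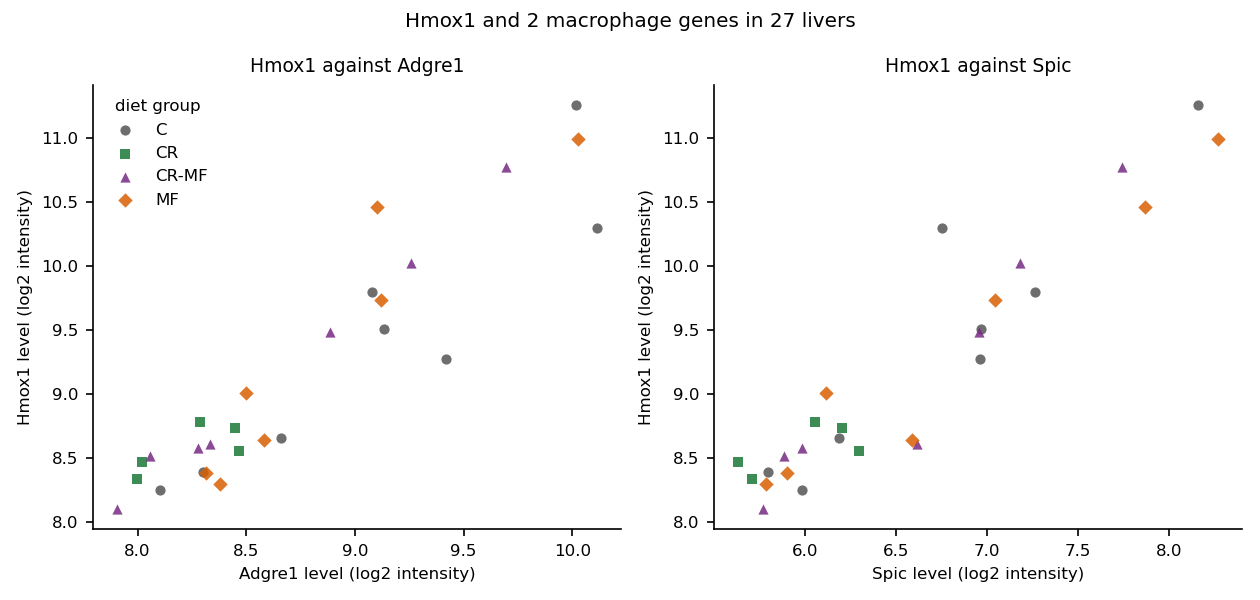
Level of Hmox1 (y axis, log2 intensity) against Adgre1 and Spic (x axes, log2 intensity) in the 27 livers, with the diet group given by colour and marker. Points follow a rising line in all groups (r = 0.94 for each gene after subtraction of group means), and the 5 CR mice sit at the lower left with Hmox1 between 8.34 and 8.78.

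Beside the Hmox1 values, the mean level of the 9 Kupffer markers was 8.12 to 9.71 in C, 8.14 to 8.84 in CR, 8.07 to 9.31 in CR-MF and 7.94 to 9.17 in MF. Adgre1 had an SD of 0.22 in CR against 0.74, 0.66 and 0.61 in C, CR-MF and MF. The mean of the 6 recruited macrophage markers was 6.51 to 6.85 in CR against 6.96 to 8.62 in C, and Trem2 itself was lower in CR than in C by 1.63 (SE 0.39, limma adjusted p = 0.0311). This last call was lost without any 1 of A4_3, A4_5, A4_17, B4_1, B4_7, B4_13 or B4_3 (-1.67 to -1.47, adjusted p 0.0545 to 0.101), and with the row as a block (-1.60, adjusted p = 0.101). All 9 Kupffer markers passed the filter, and the part that macrophage number had in the Hmox1 level was not tested.

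The genes most alike in pattern over all 27 mice differed from member to member. Nfe2l2 was most like Inpp5e (r = 0.83) and Kctd21 (r = 0.81), Keap1 like Egln3 (r = 0.83) and Ptges (r = 0.78), and Nqo1 like Zwint (r = 0.84) and Mtmr9 (r = 0.75). Gclc was most like Tex2 (r = 0.71) and Pkp1 (r = 0.70), and Gclm like Fgfr4 and Myrf (r = 0.75 and 0.74). Gsr was most like Txnl1, a thioredoxin-like protein of the proteasome (r = 0.83), and the proteasome subunit Psmd12 (r = 0.77). Txnrd1 had Srxn1 as its nearest gene of all 13993 (r = 0.78), followed by Gadd45a (r = 0.76), and Srxn1 had Ugdh (r = 0.80) and Txnl1 (r = 0.80).

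Some other genes of the pathway passed the test between diets. Of 29 further NRF2 targets listed, 25 were on the array and 24 were tested. In CR-MF minus MF, 2 were higher and 1 lower at an adjusted p of 0.05, in CR-MF minus C 2 were higher and 1 lower, in MF minus CR 3 were lower, and in CR minus C 1 was higher. None passed in MF minus C or CR-MF minus CR, and over the 4 groups 6 of the 24 passed. Across all genes the share called was 1.44% in CR-MF minus MF, 0.300% in CR-MF minus C and 5.42% in MF minus CR. It was 1.57% in CR minus C, 0% in MF minus C, 0.600% in CR-MF minus CR and 3.62% over the 4 groups. The same shares apply to the lists below. This list and the others were chosen with earlier results of these data known. The median difference of the 24 targets was 0.18 in CR-MF minus MF, against -0.0019 over all genes, and -0.098 in MF minus CR, against -0.0068. It was -0.14 in MF minus C, where no gene was called, against 0.0029 over all genes. In CR-MF minus C it was 0.013 (all genes 0.0044), in CR minus C 0.033 (0.016) and in CR-MF minus CR -0.048 (-0.00092). The comparisons share the MF, CR-MF, CR or C mice. With the row as a block, every call in CR minus C or MF minus CR given below was lost, as it was within row F or G, at the same difference as in the block fit.

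Osgin1, a growth inhibitor induced by oxidative stress, gave the clearest difference. It ran from 9.25 to 10.08 in CR-MF, from 8.65 to 9.13 in MF and from 8.42 to 9.33 in C, and from 9.16 to 9.92 in CR. Every CR and every CR-MF liver was above every MF liver. Of all genes, 3.79% did not overlap between MF and CR in either direction, and 0.650% between CR-MF and MF. CR-MF exceeded MF by 0.82 (SE 0.13, limma adjusted p = 0.00162) and C by 0.89 (SE 0.13, adjusted p = 0.000858), and both calls held whichever 1 mouse was left out. CR minus C was 0.59 (SE 0.14, limma adjusted p = 0.0279), a call lost without any 1 of A4_3, A4_5, A4_17, B4_1, B4_7, B4_13 or B4_3 (adjusted p 0.0515 to 0.106) and with the row as a block (0.67, adjusted p = 0.0828). MF minus CR was -0.53 (SE 0.14, adjusted p = 0.0302), lost without any 1 of B4_1, B4_7, C4_1, C4_11, B4_13 or B4_3 (0.0506 to 0.108) and with the row as a block (-0.42, 0.239).

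Gstp1, a glutathione transferase of the pi class, was likewise higher in CR-MF and CR, with 12.42 ± 0.31 in CR-MF, 12.30 ± 0.34 in CR, 11.77 ± 0.19 in C and 11.67 ± 0.31 in MF. CR-MF minus MF was 0.75 (SE 0.14, limma adjusted p = 0.00874), a call that held whichever 1 mouse was left out. CR-MF minus C (0.65, adjusted p = 0.0344) lost its call without any 1 of 9 mice, A4_3, A4_17, A4_9, A4_1, BC4_1, BC4_5, BC4_9, BC4_13 and BC4_15 (0.0509 to 0.0945), and MF minus CR (-0.63, adjusted p = 0.0223) without any 1 of B4_1, B4_5, B4_13 or B4_3 (0.0519 to 0.0615) or with the row as a block (-0.72, 0.0919). Mice have near-identical copies of this gene, so which copy the probes read is uncertain.

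Abcc2, the canalicular pump for glutathione and glucuronide conjugates, is outside the rule for named genes and was chosen after its values were seen. It was 0.38 lower in MF (11.52 ± 0.21) than in CR (11.90 ± 0.05), with SE 0.08 and limma adjusted p = 0.00875, and no mouse left out ended this call, but the row as a block did (-0.41, adjusted p = 0.0884). Gstm2, a glutathione transferase of the mu class, went the other way. It averaged 9.29 ± 0.24 in CR-MF against 9.86 ± 0.36 in MF and 9.96 ± 0.29 in C, with CR-MF minus MF at -0.57 (SE 0.14, limma adjusted p = 0.0363) and CR-MF minus C at -0.66 (SE 0.14, adjusted p = 0.0255). The first call was lost without any 1 of C4_1, C4_7, C4_11, C4_15, C4_5, BC4_13 or BC4_3 (-0.58 to -0.48, adjusted p 0.0503 to 0.0914) and the second without any 1 of A4_3, A4_19, A4_9 or BC4_13 (-0.66 to -0.59, 0.0501 to 0.0732). Within plate G150 they were -0.34 and -0.49 (adjusted p = 0.254 and 0.104). Akr1b8, an aldo-keto reductase, passed only over the 4 groups (limma adjusted p = 0.0305), with means of 6.92 in C, 6.13 in CR, 6.09 in CR-MF and 6.36 in MF.

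**Figure D5:**
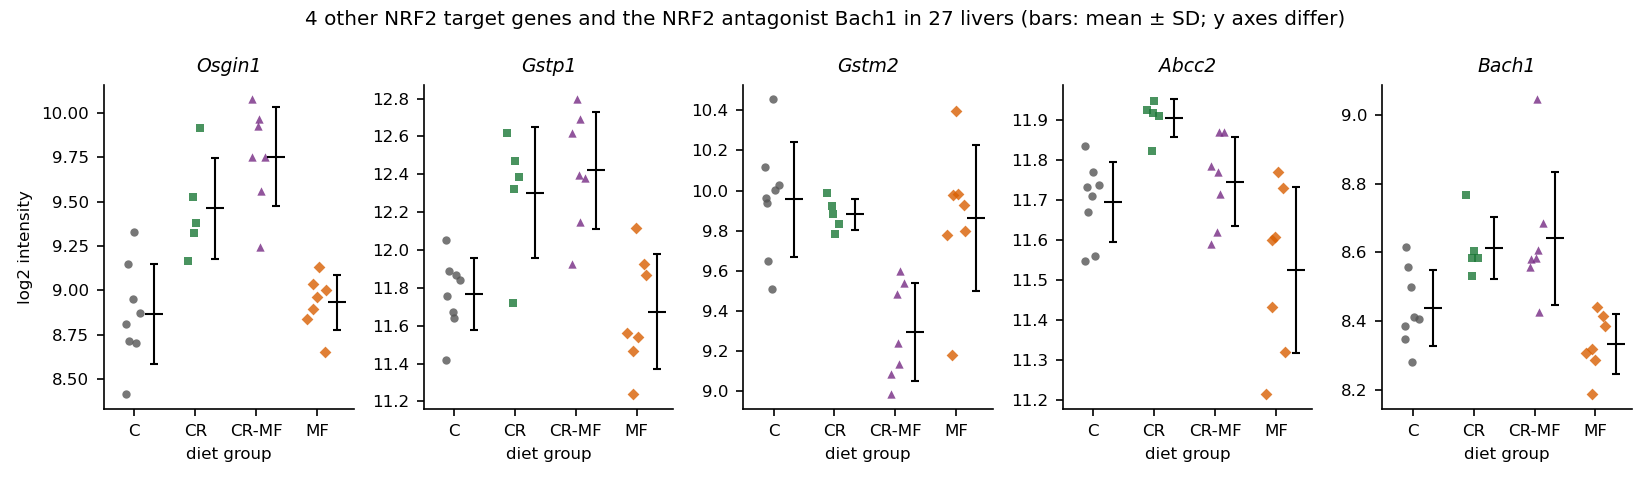
Level (log2 intensity, y axis, a separate scale for each gene) of the NRF2 targets Osgin1, Gstp1, Gstm2 and Abcc2 and of Bach1 in each of the 27 livers by diet group (x axis); points are mice and bars give the mean ± SD. Osgin1 in CR-MF (9.25 to 10.08) lies above all MF mice (8.65 to 9.13), where 0.650% of all genes do not overlap. Gstm2 is lowest in CR-MF and Bach1 lowest in MF.

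Of 15 further regulators listed, 14 were tested and 1 was called. Bach1, a haem-binding repressor that competes with NRF2 for its DNA elements, averaged 8.33 ± 0.09 in MF (n = 7), 8.44 ± 0.11 in C (n = 8), 8.61 ± 0.09 in CR (n = 5) and 8.64 ± 0.19 in CR-MF (n = 7). CR-MF minus MF was 0.31 (SE 0.07, limma adjusted p = 0.0271) and MF minus CR was -0.28 (SE 0.08, adjusted p = 0.0382). The CR mice (8.53 to 8.77) did not overlap the MF mice (8.19 to 8.44), which held for 3.79% of all genes. The first call was lost without any 1 of C4_11, C4_5 or BC4_9 (0.28 to 0.30, adjusted p 0.0508 to 0.0664) and the second without any 1 of 9 mice, B4_1, B4_5, B4_13, B4_3, C4_1, C4_7, C4_9, C4_11 and C4_5 (-0.29 to -0.24, 0.0520 to 0.0838) or with the row as a block (-0.26, 0.144). The ligase scaffold's RING protein Rbx1 and the small MAF genes Maff and Mafg came next by the test over the 4 groups, with limma adjusted p of 0.149, 0.175 and 0.185.

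None of the 5 tested NADPH-supplying genes was called, the nearest being Idh1, cytosolic isocitrate dehydrogenase, in MF minus CR (-0.35, SE 0.11, limma adjusted p = 0.0688). Of 18 tested partners in the glutathione and thioredoxin systems, Slc3a2 was higher in MF than in CR (0.35, SE 0.10, limma adjusted p = 0.0473), but 15 of the 27 fits that left out 1 mouse lost the call (adjusted p 0.0507 to 0.110), as did the row as a block (0.31, adjusted p = 0.271). Of 9 haem and iron genes, 2 were lower in MF than in CR. Fech, ferrochelatase, the last enzyme of haem synthesis, fell by 0.39 (log2 difference -0.39, SE 0.07, limma adjusted p = 0.00315) and kept its call in all 27 such fits, though not with the row as a block (-0.43, adjusted p = 0.0518). Cd163, the scavenger receptor for haemoglobin bound to haptoglobin, was at -1.96 (SE 0.55, adjusted p = 0.0367), and 9 of the 27 fits lost the call, each without 1 of the CR mice B4_5, B4_7, B4_13 and B4_3 or of the MF mice C4_1, C4_7, C4_9, C4_11 and C4_5 (adjusted p 0.0524 to 0.0920). With the row as a block Cd163 was at -2.16 (adjusted p = 0.178).

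The next list held Atf4, the gene of a stress factor that shares Slc7a11 with NRF2, and targets of ATF4. Of its 10 tested genes, 2 were lower in CR-MF than in MF. Vldlr, a lipoprotein receptor, differed by -1.02 (SE 0.17, limma adjusted p = 0.00320) and Fgf21, a hormone of the fasting response, by -0.73 (SE 0.16, adjusted p = 0.0197, and 0.0519 without BC4_9). Fgf21 was also lower in CR-MF than in C (-0.70, SE 0.16, limma adjusted p = 0.0475), a call that 18 of the 27 fits without 1 mouse lost (adjusted p 0.0508 to 0.112), and Slc3a2, described above, is on this list too.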

How the data were processed

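The authors measured liver RNA on Affymetrix Mouse Gene 1.1 ST arrays and deposited log2 intensities per transcript cluster, made with RMA per the labels (version not given in the sources used here). Of 35556 clusters, 21218 had 1 symbol and stood for 18820 genes, taking the cluster with the highest mean for a gene with several. Of these genes, 18790 matched RefSeq by gene ID. As in the methods, a gene was kept (13993 were) if 5 or more arrays exceeded an intensity of 20 and its interquartile range was over 0.1. The 4 group means over all 27 arrays were compared with limma 3.58.1 (R 4.3.3, eBayes with an intensity trend), with Benjamini-Hochberg adjustment. The fits were tested on simulated data with changes larger than most member differences found here. How well they recover smaller differences was not tested. Correlations used values centred within diets and 100000 permutations within diets (numpy 2.4.6, Python 3.11.15), and 20000 in the alternatives. The smallest p that 100000 permutations can give is 1e-05. The number of arrays and the signal over background limit the precision.

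Named by rule are the 10 genes, up to 4 genes with the smallest p over the 4 groups in each other list, and the 2 genes most alike to each tested member. Correlation partners outside these sets, and the markers given beside them, were named for their correlations in these data. Abcc2 was also named after its values were seen. The members, lists and rule were chosen with earlier results of these data known. Alternatives were other normalizations, filters, moderation and weights, 2-group fits, blocks for plate, well row or animal number, the arrays of plate G150 only, and leaving out each mouse. Plate and row codes come from array names.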

Additional observations from a re-analysis of the deposited data

Results flagged for a closer look

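Of the 40 combinations of gene and diet group screened for a mouse far from the rest of its group, 4 stood out, where chance flags about 1 in 20. The gap to the nearest mouse was divided by the range of the group. Nfe2l2 in the CR-MF mouse BC4_15 was 8.50 against 9.56 to 9.81 in the other 6 mice (gap over range 0.807). Txnrd1 in the CR mouse B4_5 was 9.04 against 8.37 to 8.52 (0.772). Slc7a11 in the C mouse A4_9 was 5.83 against 3.32 to 4.14 (0.674), and in the MF mouse C4_11 it was 4.55 against 3.56 to 3.89 (0.671), the only 2 arrays on which this gene exceeded the filter's intensity.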

How the results depend on the processing

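The count of called members was 0 in all 6 comparisons and over the 4 groups, and 277 of 284 recomputed counts were 0 too. The exceptions were Gsr alone: 1 call in CR-MF minus MF with array weights, in the fit of these groups alone and without B4_5 and BC4_15 (chosen after seeing the data), and 1 over the 4 groups without these mice. Leaving out 1 mouse at a time gave 0 to 1 calls in CR-MF minus MF and over the 4 groups. With the animal number as a replicate block (correlation 0.0770) the count was 0 throughout. Deviations of same-numbered mice of different diets had a median r of 0.0942 (-0.25 to 0.36 over 27 pairs) against -0.0235 for other pairs. These values do not decide whether the numbers pair the mice, and the main fit used no pairing. Of 2205 recomputed member differences, 85 changed sign. The 10 called member pairs numbered 6 within plate G150, 3 without the 2 farthest mice, 3 without B4_5 and BC4_15 and 6 to 11 with 1 mouse left out. The cause of these changes was not tested.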
